A study of Arabidopsis thaliana with 8 samples.

Results

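Transcripts of the replicate 2 seedling pools were set against those of the replicate 1 pools in both genotypes of an Arabidopsis thaliana study, over every gene locus counted in its mRNA libraries. The replicate 2 pools were 1 transgenic and 1 wild-type (WT) pool, and so were the replicate 1 pools, so 4 mRNA libraries of the 8 libraries in the series were used. Members were all 20701 loci of the deposited count table, of which 20298 had enough counts to be tested. The transgenic seedlings carried 35S:CAHB12, a coffee gene for a class I homeodomain-leucine zipper transcription factor driven by the constitutive 35S promoter of cauliflower mosaic virus. All seedlings were of the Columbia accession, were taken whole 10 days after germination, and had been kept at 22 °C with 18 h of light and 6 h of dark. RNA of 50 seedlings was pooled for each library, and 4 µg of it went into library making. The study design mentions more than 1 transgenic line, and the labels do not tie a pool to a line. They call the pools biological replicates and do not say whether pools with the same number were grown or harvested together.

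Several groups of seedling genes are known to follow the surroundings of a plant closely. Calmodulin-like, ethylene response factor and xyloglucan-modifying genes respond within a short time to touch and handling, clock genes follow the time of day, and dark-induced genes follow the sugar supply. Genes for the uptake and assimilation of iron, sulfur and nitrate follow the nutrient supply, and seed storage transcripts are relics of seed maturation.

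The libraries held between 15424261 and 19436632 counts. The plastid genome took 5.02% (transgenic) and 4.00% (WT) of the counts in replicate 2, against 3.33% (transgenic) and 3.76% (WT) in replicate 1. The root-expressed gene PYK10 and the light-harvesting genes were abundant in all 4 libraries, as in whole seedlings. A count of 0 allows up to 0.184 (transgenic) and 0.155 CPM (WT) in replicate 2, against 0.190 (transgenic) and 0.192 CPM (WT) in replicate 1, where CPM are read counts scaled by library size (the usual CPM unit). These limits rest on 3 counts per library and cover counting error only.

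Replicate 2 differed from replicate 1 in 584 loci, 2.88% of those tested, of which 278 (1.37%) were higher and 306 (1.51%) lower. A locus was called at an adjusted p under 0.05 in edgeR's quasi-likelihood test with Benjamini-Hochberg adjustment, fitted over all tested loci with genotype as a covariate. An unadjusted p under 0.05 was reached by 2839 loci. In pools of whole seedlings, fewer cells of a type and less RNA per cell cannot be told apart. The differences were mostly small, with a median of 1.44-fold over the called loci, and 73 of them exceeded 2-fold. The replicate 2 pools lay both above or both below the replicate 1 pools in 513 of the called loci, against 37.2% of the tested loci (19% above and 18.2% below). Calls were made on the same libraries, so a lack of overlap is no separate support for a call, here or for genes named below. Both genotypes had the same sign in all 584 called loci, which the fit nearly requires of a call. Of these, 45 were at least 1.5-fold higher in both genotypes and 85 at least 1.5-fold lower, against 265 of all tested loci in either direction. The WT pair differed more than the transgenic pair in 403 of the 584, with median absolute log2 ratios of 0.44 in the transgenic pair and 0.59 in the WT pair. Over all tested loci the direction was shared by both genotypes in 58.96%, and the log2 ratios of the genotypes correlated with r = 0.23 across loci, which are not independent replicates.

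The number of calls depended strongly on the test. DESeq2 with the same covariate called 95 loci, 41 higher and 54 lower, and all 95 were among the 584. It gave an adjusted p to 13878 loci only. In the gene lists, a member without one was counted as not called by DESeq2. Without the genotype covariate edgeR called 0 loci, with 1376 at an unadjusted p under 0.05. With 1 library left out the covariate could not be kept, and edgeR called 0 loci without transgenic replicate 2, 2 without WT replicate 2, 276 without transgenic replicate 1 and 0 without WT replicate 1. The fit left 1 residual degree of freedom per locus, which is how far the replicate difference disagrees between the genotypes. The p-values therefore rest on a spread shared over loci, not on a spread measured well for each gene. What the replicate number stands for is not given in the labels.

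**Figure D1:**
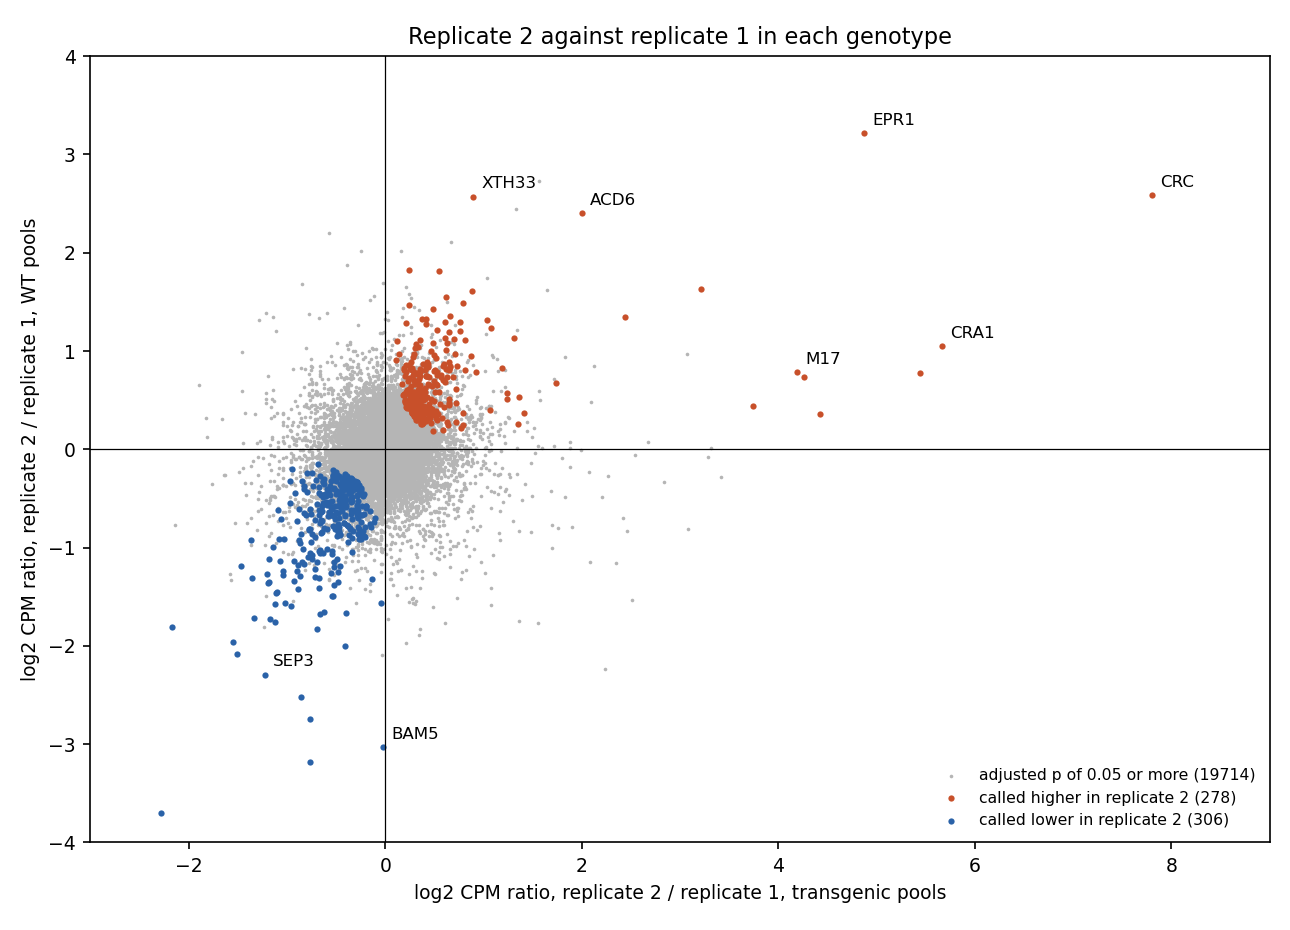
Each point is 1 of 20298 tested loci, with the log2 CPM ratio of replicate 2 to replicate 1 in the transgenic pools on the x axis and in the WT pools on the y axis. The 278 loci called higher lie towards the upper right and the 306 called lower towards the lower left, and the rises with large transgenic ratios include the seed genes CRC, CRA1 and M17.

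The replicate difference was similar in extent to the difference between genotypes. In the same fit, with the replicate number as the block, 596 loci (2.94%) differed between transgenic and WT pools, 227 higher and 369 lower. The calls overlapped: 178 loci were called in both contrasts, which is 30.48% of the replicate calls. Of genes named below, these include TCH4, RD29A and WRKY70, lower in the transgenic pools, and SEN1 and IRT1, higher there. Both contrasts used the same residual spread, and the cause of the overlap was not tested. The summed squares of log2 CPM over the tested loci divided into 35.2% for the replicate, 42.7% for the genotype and 22.11% for their interaction. Calls depended on abundance: 6.67% of the loci were called in the highest of 5 equal classes of mean CPM, against 0.739% in the lowest. Median log2 fold changes over 5 such classes of the deposited transcript length all lay between -0.012 and 0.0047. Gene models overlapped another gene in 28.42% of the called loci, against 32.4% of the tested loci, and shared reads cannot be separated. The text below mentions this for some genes only. TCH2, WRKY33, MYB44, APR1, BHLH101, LHCB2.3, DIN10, XTR7, TIP3;1 and DELTA-TIP are among the others with such an overlap.

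Genes of rapid stress and touch responses had the most falls of any list in replicate 2. Here and in the other lists, the share of members called stands beside 2.88% over all tested loci (1.37% higher and 1.51% lower). Lists with a share near it show nothing about their members. The lists were chosen with earlier results of these data known, so a share above it is a description and no test of the list. Of 14 tested members, 0 rose and 8 fell by edgeR (57.1% called), 0 and 12 did so at an unadjusted p under 0.05, and DESeq2 called 0 higher and 3 lower. The median log2 fold change was -0.66, against -0.0012 over all tested loci. Both medians within genotypes were negative, with -0.33 in the transgenic pair and -0.92 in the WT pair. Without WT replicate 1 the median was -0.24. TCH4 (AT5G57560), a touch-induced xyloglucan endotransglucosylase gene, had 142 (transgenic) and 268 CPM (WT) in replicate 2, against 301 (transgenic) and 504 CPM (WT) in replicate 1. Both replicate 2 pools lay below both replicate 1 pools (log2 fold change -0.99, SE 0.08, edgeR adjusted p = 8.24e-06). TCH2 (AT5G37770), which encodes a calmodulin-like protein, had 27.4 (transgenic) and 38.2 CPM (WT) in replicate 2, against 48.0 (transgenic) and 60.6 CPM (WT) in replicate 1, and again the groups did not overlap (log2 fold change -0.73, SE 0.09, edgeR adjusted p = 0.000176). SZF1 (AT3G55980), a salt-inducible zinc finger gene, had 30.8 (transgenic) and 43.4 CPM (WT) in replicate 2, against 48.9 (transgenic) and 139 CPM (WT) in replicate 1, so that the WT replicate 1 pool stood far above the other pools (log2 fold change -1.22, SE 0.15, edgeR adjusted p = 0.000233).

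Ethylene response factor genes showed the same high level in the WT replicate 1 pool. ERF105 (AT5G51190) had 1.90 (transgenic) and 2.74 CPM (WT) in replicate 2, against 3.54 (transgenic) and 16.3 CPM (WT) in replicate 1, with no overlap between replicates (log2 fold change -1.99, SE 0.28, edgeR adjusted p = 0.000663); its gene model overlaps another gene. The calmodulin-like gene CML38 (AT1G76650) had 1.35 (transgenic) and 2.95 CPM (WT) in replicate 2, against 3.03 (transgenic) and 8.30 CPM (WT) in replicate 1, and its groups did not overlap (log2 fold change -1.38, SE 0.24, edgeR adjusted p = 0.00336). The further members that fell were MYB44, ERF1A and WRKY33, with log2 fold changes of -0.63, -0.60 and -0.89. WRKY33, a defence regulator, had 19.5 (transgenic) and 21.5 CPM (WT) in replicate 2, against 20.1 (transgenic) and 63.5 CPM (WT) in replicate 1. Its transgenic pools were alike, and its fall rested on the WT pair. Ethylene synthesis was represented among the 12 largest falls by ACS11 (AT4G08040), an ACC synthase gene with 0.368 (transgenic) and 0.724 CPM (WT) in replicate 2, against 1.26 (transgenic) and 3.45 CPM (WT) in replicate 1 (log2 fold change -2.09, SE 0.39, edgeR adjusted p = 0.00629).

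**Figure D2:**
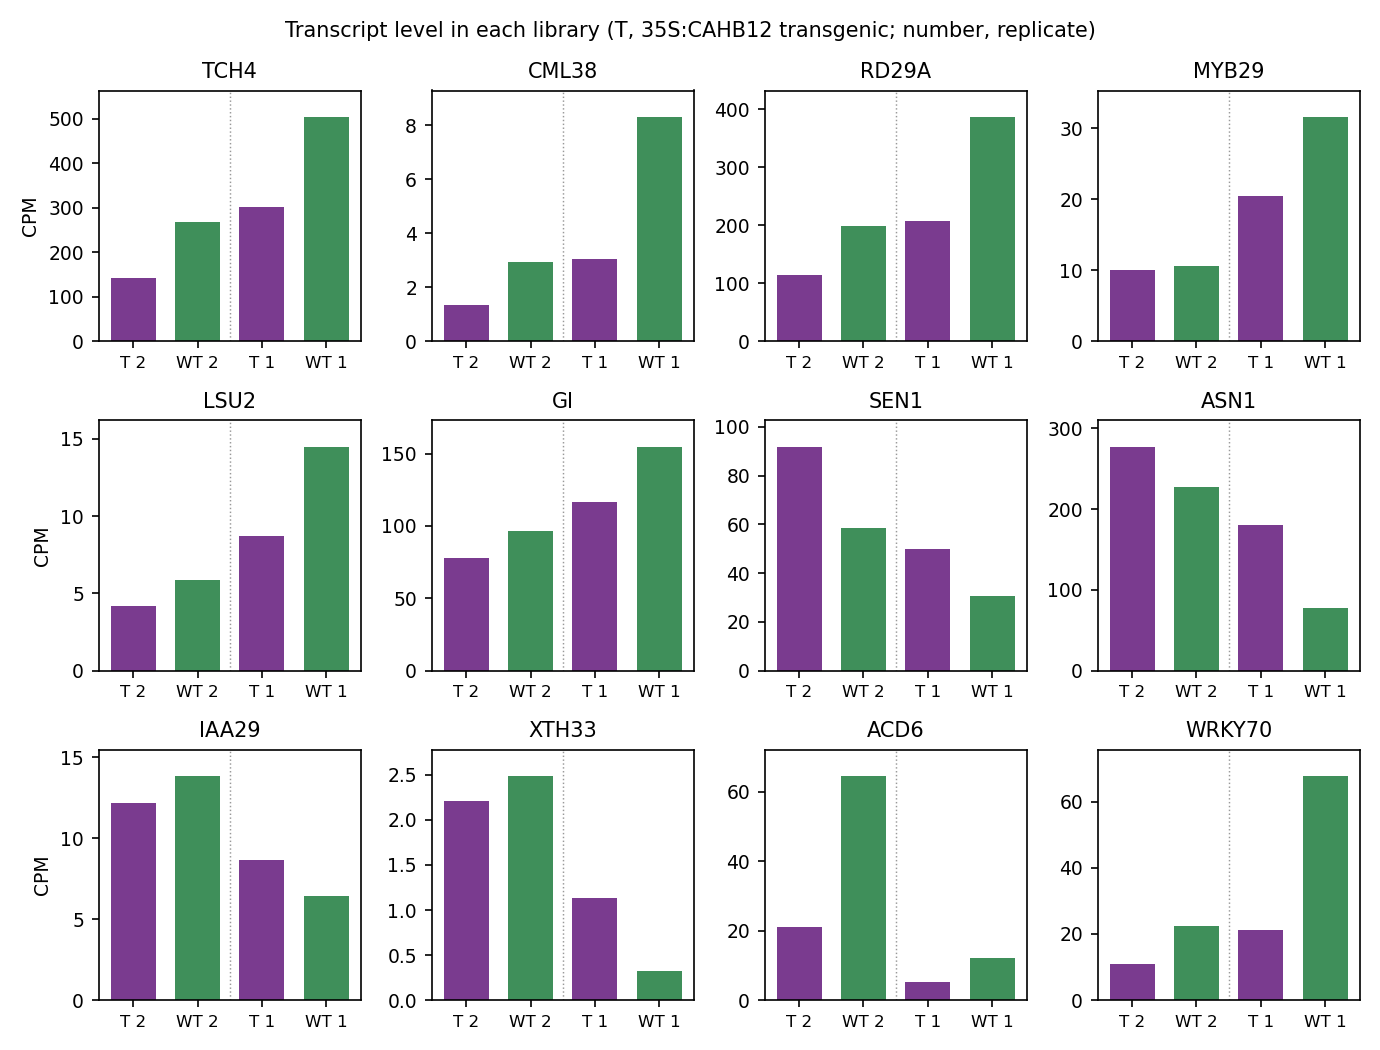
CPM of 12 genes in each library, with transgenic pools in purple and WT pools in green, the replicate 2 pools left of the dotted line and the replicate 1 pools right of it. TCH4, CML38, RD29A, MYB29, LSU2 and GI were lower in both replicate 2 pools than in both replicate 1 pools, SEN1, ASN1, IAA29, XTH33 and ACD6 were higher, and the replicates of WRKY70 overlapped.

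Other loci among the 12 largest falls had no symbol in the name table. AT1G72920 had 1.84 (transgenic) and 1.81 CPM (WT) in replicate 2, against 3.22 (transgenic) and 17.4 CPM (WT) in replicate 1 (log2 fold change -2.37, SE 0.35, edgeR adjusted p = 0.00106). AT4G27280 had 9.08 (transgenic) and 12.1 CPM (WT) in replicate 2, against 15.6 (transgenic) and 81.3 CPM (WT) in replicate 1 (log2 fold change -1.97, SE 0.27, edgeR adjusted p = 0.000417). In both, the WT replicate 1 pool was several times above the other 3. CIPK20 (AT5G45820), a kinase regulated by calcineurin B-like calcium sensors, had 3.31 (transgenic) and 4.50 CPM (WT) in replicate 2, against 8.53 (transgenic) and 15.1 CPM (WT) in replicate 1, with both pools of replicate 2 below both of replicate 1 (log2 fold change -1.58, SE 0.18, edgeR adjusted p = 8.04e-05). SQP1 (AT5G24150), a squalene epoxidase family gene, fell by 1.5 on the log2 scale (SE 0.15), AT3G50800 by 1.56 and AT3G62950 by 1.43. NIG1 (AT5G46830), a salt-inducible gene, fell by 1.39.

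Hormone response genes had further falls in replicate 2. The first list held genes of abscisic acid (ABA) and dehydration responses. Of 18 tested members, 0 rose and 4 fell by edgeR (22.2% called), 1 and 11 did so at an unadjusted p under 0.05, and DESeq2 called 0 higher and 1 lower. Their median log2 fold change was -0.29, and 16 of the 18 were lower in the transgenic pair and 16 in the WT pair. RD26 (AT4G27410), a NAC transcription factor gene, had 7.06 (transgenic) and 9.15 CPM (WT) in replicate 2, against 13.0 (transgenic) and 22.5 CPM (WT) in replicate 1, without overlap (log2 fold change -1.12, SE 0.14, edgeR adjusted p = 0.000233). HB7 (AT2G46680), a class I homeodomain-leucine zipper gene of the family to which CAHB12 belongs, had 31.1 (transgenic) and 39.9 CPM (WT) in replicate 2, against 48.6 (transgenic) and 59.5 CPM (WT) in replicate 1 (log2 fold change -0.61, SE 0.09, edgeR adjusted p = 0.000676). NCED3 (AT3G14440), which encodes the rate-limiting enzyme of ABA synthesis under drought, had 10.8 (transgenic) and 15.6 CPM (WT) in replicate 2, against 18.4 (transgenic) and 23.9 CPM (WT) in replicate 1 (log2 fold change -0.68, SE 0.12, edgeR adjusted p = 0.00298). The replicates did not overlap in any of these 3 genes, nor in ABI2 (AT5G57050), a protein phosphatase gene of ABA signalling that fell by 0.48.

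Among genes of jasmonate synthesis and response, those called were lower. Of 17 tested members, 0 rose and 4 fell by edgeR (23.5% called), 1 and 12 did so at an unadjusted p under 0.05, and DESeq2 called 0 higher and 0 lower. The median log2 fold change was -0.31. JAZ6, JAZ7 and JAZ9, which encode repressors of jasmonate signalling, and MYC2, the transcription factor they repress, were the members that fell. JAZ9 (AT1G70700) had 20.9 (transgenic) and 25.3 CPM (WT) in replicate 2, against 33.4 (transgenic) and 34.5 CPM (WT) in replicate 1 (log2 fold change -0.56, SE 0.10, edgeR adjusted p = 0.00506). MYC2 (AT1G32640) had 26.8 (transgenic) and 27.4 CPM (WT) in replicate 2, against 32.4 (transgenic) and 49.7 CPM (WT) in replicate 1 (log2 fold change -0.58, SE 0.12, edgeR adjusted p = 0.0119), and its gene model overlaps another gene. JAZ6 (AT1G72450) had 33.9 (transgenic) and 41.9 CPM (WT) in replicate 2, against 65.5 (transgenic) and 48.1 CPM (WT) in replicate 1, with its highest level in the transgenic replicate 1 pool (log2 fold change -0.57, SE 0.13, edgeR adjusted p = 0.0199). In all 4 genes both replicate 2 pools lay below both replicate 1 pools.

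Cold response genes moved in both directions. Of 14 tested members, 1 rose and 2 fell by edgeR (21.4% called), 2 and 7 did so at an unadjusted p under 0.05, and DESeq2 called 0 higher and 2 lower. RD29A (AT5G52310), a dehydration- and cold-induced gene, had 113 (transgenic) and 199 CPM (WT) in replicate 2, against 207 (transgenic) and 386 CPM (WT) in replicate 1, without overlap (log2 fold change -0.91, SE 0.08, edgeR adjusted p = 1.56e-05). ERD10 (AT1G20450), a dehydrin gene, had 142 (transgenic) and 212 CPM (WT) in replicate 2, against 194 (transgenic) and 301 CPM (WT) in replicate 1, and the WT replicate 2 pool lay above the transgenic replicate 1 pool (log2 fold change -0.48, SE 0.08, edgeR adjusted p = 0.00233). COR27 (AT5G42900), a cold-induced gene that is also under clock control, had 106 (transgenic) and 93.6 CPM (WT) in replicate 2, against 84.1 (transgenic) and 67.5 CPM (WT) in replicate 1, with both replicate 2 pools higher (log2 fold change 0.40, SE 0.08, edgeR adjusted p = 0.0119).

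Genes of aliphatic glucosinolate synthesis, which make methionine-derived defence compounds, had falls in replicate 2 and no rises. Of 13 tested members, 0 rose and 6 fell by edgeR (46.1% called), 0 and 11 did so at an unadjusted p under 0.05, and DESeq2 called 0 higher and 2 lower. The median log2 fold change was -0.31, and -0.11 without WT replicate 1. CYP79F1 (AT1G16410), which starts core synthesis from chain-elongated methionine, had 75.9 (transgenic) and 113 CPM (WT) in replicate 2, against 145 (transgenic) and 249 CPM (WT) in replicate 1 (log2 fold change -1.04, SE 0.08, edgeR adjusted p = 6.96e-06). MYB29 (AT5G07690), an activator of the pathway, had 10.0 (transgenic) and 10.6 CPM (WT) in replicate 2, against 20.5 (transgenic) and 31.5 CPM (WT) in replicate 1 (log2 fold change -1.33, SE 0.13, edgeR adjusted p = 2.45e-05). FMOGSOX1 (AT1G65860), which oxidises the side chain, had 6.08 (transgenic) and 6.83 CPM (WT) in replicate 2, against 8.79 (transgenic) and 18.0 CPM (WT) in replicate 1 (log2 fold change -1.02, SE 0.18, edgeR adjusted p = 0.00465). In these genes and in MYB28, CYP83A1 and UGT74C1, which fell by 0.43, 0.35 and 0.40, both replicate 2 pools lay below both replicate 1 pools. The WT ratio was the larger in 12 of the 13 members.

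Among sulfur assimilation genes, those called were lower. Of 12 tested members, 0 rose and 5 fell by edgeR (41.7% called), 0 and 8 did so at an unadjusted p under 0.05, and DESeq2 called 0 higher and 2 lower. The median log2 fold change was -0.36. APR1 (AT4G04610), an adenosine 5'-phosphosulfate reductase gene, had 67.0 (transgenic) and 108 CPM (WT) in replicate 2, against 112 (transgenic) and 197 CPM (WT) in replicate 1, without overlap (log2 fold change -0.81, SE 0.08, edgeR adjusted p = 2.45e-05). LSU2 (AT5G24660), a gene that responds to low sulfur, had 4.17 (transgenic) and 5.90 CPM (WT) in replicate 2, against 8.72 (transgenic) and 14.5 CPM (WT) in replicate 1 (log2 fold change -1.20, SE 0.17, edgeR adjusted p = 0.000499). LSU3 (AT3G49570) had 1.72 (transgenic) and 4.66 CPM (WT) in replicate 2, against 3.29 (transgenic) and 12.6 CPM (WT) in replicate 1, so its WT replicate 2 pool lay above the transgenic replicate 1 pool (log2 fold change -1.28, SE 0.21, edgeR adjusted p = 0.00238). APR2 and APR3 fell by 0.33 and 0.40, with overlapping replicates. The median of the list changed sign to 0.12 without WT replicate 1.

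Iron genes had calls in both directions. Of 19 tested members, 2 rose and 6 fell by edgeR (42.1% called), 3 and 8 did so at an unadjusted p under 0.05, and DESeq2 called 1 higher and 2 lower. IRT1 (AT4G19690), the main iron transporter of the root surface, had 31.4 (transgenic) and 24.0 CPM (WT) in replicate 2, against 18.5 (transgenic) and 10.3 CPM (WT) in replicate 1, with both replicate 2 pools higher (log2 fold change 0.97, SE 0.12, edgeR adjusted p = 0.00024). FRO2 (AT1G01580), the ferric chelate reductase that acts beside it, had 6.51 (transgenic) and 7.4 CPM (WT) in replicate 2, against 4.11 (transgenic) and 4.15 CPM (WT) in replicate 1 (log2 fold change 0.75, SE 0.19, edgeR adjusted p = 0.0439). Both genes of iron uptake at the root surface were thus higher in replicate 2. FIT, the transcription factor known to activate both, had a log2 fold change of 0.26 and did not pass.

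The other called iron genes were lower, with roles in signalling and transport. IMA3 (AT2G30766), which encodes a peptide that promotes iron uptake, had 9.21 (transgenic) and 16.3 CPM (WT) in replicate 2, against 19.0 (transgenic) and 38.6 CPM (WT) in replicate 1, without overlap (log2 fold change -1.16, SE 0.11, edgeR adjusted p = 2.45e-05). Its gene model overlaps CYP71A13, which also fell, and AT2G30760, and shared reads cannot be separated. BHLH101 (AT5G04150), a transcription factor of the iron deficiency response, had 2.02 (transgenic) and 4.55 CPM (WT) in replicate 2, against 5.82 (transgenic) and 10.5 CPM (WT) in replicate 1 (log2 fold change -1.33, SE 0.20, edgeR adjusted p = 0.00101). IMA2 fell by 0.86, ORG1 by 0.61, BTS, a ubiquitin ligase gene that restrains iron uptake, by 0.35, and OPT3, a phloem transporter gene, by 0.34. The replicates overlapped in ORG1, BTS and OPT3. Some other members had ratios of opposite sign in the genotypes. BHLH100 had log2 ratios of 0.66 in the transgenic pair and -1.19 in the WT pair, and IMA1 had 0.56 in the transgenic pair and -0.95 in the WT pair.

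**Figure D3:**
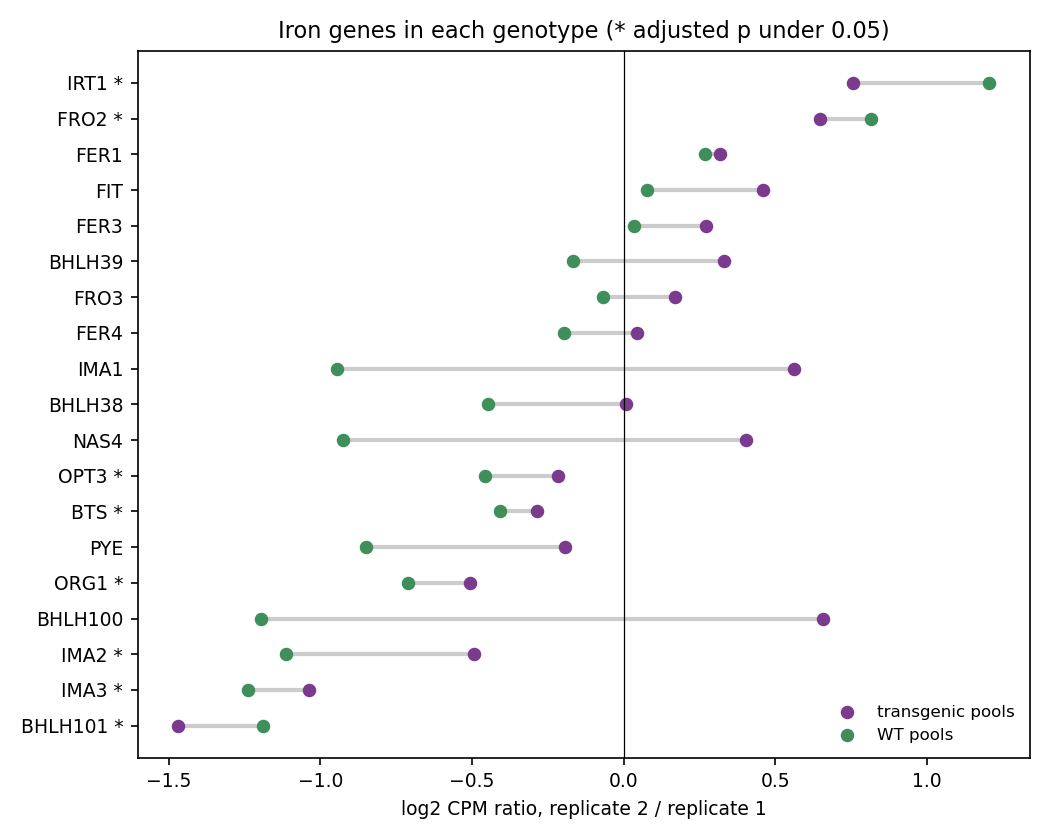
Log2 CPM ratio of replicate 2 to replicate 1 for 19 iron genes, in the transgenic pools (purple) and the WT pools (green), with a grey bar joining both values of a gene and an asterisk at an adjusted p under 0.05. IRT1 and FRO2 were higher in both genotypes, the 6 genes called lower were lower in both, and IMA1, NAS4 and BHLH100 were among those with ratios of opposite sign.

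Among clock genes and their outputs the called members were lower in replicate 2, although the median log2 fold change of the list was -0.05. Of 24 tested members, 0 rose and 6 fell by edgeR (25% called), 2 and 8 did so at an unadjusted p under 0.05, and DESeq2 called 0 higher and 2 lower. LNK1 (AT5G64170), a coactivator of clock genes, had 11.2 (transgenic) and 17 CPM (WT) in replicate 2, against 25.5 (transgenic) and 36.9 CPM (WT) in replicate 1 (log2 fold change -1.15, SE 0.11, edgeR adjusted p = 2.26e-05), and its gene model overlaps another gene. GI (AT1G22770), a clock and flowering regulator, had 77.6 (transgenic) and 96.3 CPM (WT) in replicate 2, against 116 (transgenic) and 155 CPM (WT) in replicate 1 (log2 fold change -0.64, SE 0.08, edgeR adjusted p = 0.000232). ELF4 (AT2G40080), a part of the evening complex, had 83.4 (transgenic) and 94.8 CPM (WT) in replicate 2, against 114 (transgenic) and 132 CPM (WT) in replicate 1 (log2 fold change -0.47, SE 0.08, edgeR adjusted p = 0.00295). In these and in CDF1, PRR7 and LNK2, with log2 fold changes of -1.02, -0.48 and -0.50, both replicate 2 pools lay below both replicate 1 pools. The difference was about equal in both genotypes for LNK1, with log2 ratios of -1.18 in the transgenic pair and -1.12 in the WT pair.

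Among genes of light harvesting and Rubisco, those that fell were the 3 members of the LHCB2 family, which encode an antenna protein of photosystem II. Of 26 tested members, 0 rose and 3 fell by edgeR (11.5% called), 0 and 7 did so at an unadjusted p under 0.05, and DESeq2 called 0 higher and 3 lower. LHCB2.2 (AT2G05070) had 576 (transgenic) and 869 CPM (WT) in replicate 2, against 874 (transgenic) and 1261 CPM (WT) in replicate 1 (log2 fold change -0.57, SE 0.08, edgeR adjusted p = 0.000751). LHCB2.1 (AT2G05100) and LHCB2.3 (AT3G27690) fell by 0.57 and 0.56. Near-identical copies can share reads, and whether the 3 LHCB2 genes do was not tested. The other 23 genes did not pass. The replicates overlapped in LHCB2.1 and LHCB2.3, whose transgenic replicate 1 pool was close to the WT replicate 2 pool.

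Genes of the cell cycle and DNA replication included a few falls. Of 13 tested members, 0 rose and 3 fell by edgeR (23.1% called), 0 and 6 did so at an unadjusted p under 0.05, and DESeq2 called 0 higher and 0 lower. MCM2 (AT1G44900), part of the replicative helicase, had 12.5 (transgenic) and 17.4 CPM (WT) in replicate 2, against 19.3 (transgenic) and 23.9 CPM (WT) in replicate 1, without overlap (log2 fold change -0.53, SE 0.11, edgeR adjusted p = 0.0161). TSO2, which encodes a ribonucleotide reductase subunit, and KNOLLE, the syntaxin of cell division, fell by 0.41 and 0.35 with overlapping replicates.

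Among sugar starvation and dark-induced genes, those called were higher in replicate 2. Of 12 tested members, 4 rose and 0 fell by edgeR (33.3% called), 5 and 1 did so at an unadjusted p under 0.05, and DESeq2 called 1 higher and 0 lower. The median log2 fold change was 0.26. SEN1 (AT4G35770), a dark-induced gene, had 91.8 (transgenic) and 58.7 CPM (WT) in replicate 2, against 49.9 (transgenic) and 30.4 CPM (WT) in replicate 1, with both replicate 2 pools higher (log2 fold change 0.91, SE 0.08, edgeR adjusted p = 2.26e-05). ASN1 (AT3G47340), an asparagine synthetase gene that rises when sugar is short, had 277 (transgenic) and 228 CPM (WT) in replicate 2, against 181 (transgenic) and 77.6 CPM (WT) in replicate 1 (log2 fold change 1.07, SE 0.14, edgeR adjusted p = 0.000375), and its gene model overlaps another gene. DIN10 (AT5G20250), a raffinose synthase family gene, had 1329 (transgenic) and 1505 CPM (WT) in replicate 2, against 1069 (transgenic) and 715 CPM (WT) in replicate 1 (log2 fold change 0.69, SE 0.13, edgeR adjusted p = 0.00553). TPS10, a trehalose phosphate synthase family gene, rose by 0.38. Of the 8 members that did not pass, TPS8, of the same family, had a log2 fold change of -0.30. In all 4 called genes the replicates did not overlap and the WT ratio was the larger. The median of the list was 0.07 without WT replicate 1.

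ERD5 (AT3G30775), a proline dehydrogenase gene that is repressed by dehydration, was picked out once its values had been seen, for a p-value among the smallest. It had 110.1 (transgenic) and 94.2 CPM (WT) in replicate 2, against 52.3 (transgenic) and 39.9 CPM (WT) in replicate 1, with both replicate 2 pools higher and log2 ratios of 1.07 in the transgenic pair and 1.24 in the WT pair (log2 fold change 1.16, SE 0.08, edgeR adjusted p = 2.39e-06).

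Growth-related genes rose in smaller number. The auxin and shade list had a median log2 fold change of 0.20. Of 18 tested members, 3 rose and 0 fell by edgeR (16.7% called), 8 and 1 did so at an unadjusted p under 0.05, and DESeq2 called 0 higher and 0 lower. XTR7 (AT4G14130), a xyloglucan-modifying gene induced in shade, had 17.9 (transgenic) and 17.4 CPM (WT) in replicate 2, against 12.7 (transgenic) and 6.38 CPM (WT) in replicate 1 (log2 fold change 0.92, SE 0.17, edgeR adjusted p = 0.00634). IAA29 (AT4G32280), an auxin signalling repressor gene, had 12.2 (transgenic) and 13.8 CPM (WT) in replicate 2, against 8.66 (transgenic) and 6.45 CPM (WT) in replicate 1 (log2 fold change 0.79, SE 0.16, edgeR adjusted p = 0.013). SAUR22 (AT5G18050), a small auxin-induced gene of cell expansion, had 14.1 (transgenic) and 9.78 CPM (WT) in replicate 2, against 5.25 (transgenic) and 7.53 CPM (WT) in replicate 1 (log2 fold change 0.89, SE 0.20, edgeR adjusted p = 0.0225). The replicates did not overlap in any of them, and the rise was larger in the WT pair for XTR7 and IAA29 and in the transgenic pair for SAUR22. Its relatives SAUR19, SAUR20 and SAUR23 had log2 fold changes of 0.76, 0.73 and 0.64 and did not pass, and reads can be shared among such near-identical copies.

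Genes of cell wall loosening had calls in both directions. Of 17 tested members, 3 rose and 1 fell by edgeR (23.5% called), 4 and 5 did so at an unadjusted p under 0.05, and DESeq2 called 1 higher and 0 lower. XTH24 (AT4G30270) had 64.3 (transgenic) and 41.6 CPM (WT) in replicate 2, against 41.9 (transgenic) and 23.6 CPM (WT) in replicate 1, and its WT replicate 2 pool was level with the transgenic replicate 1 pool (log2 fold change 0.71, SE 0.09, edgeR adjusted p = 0.000276). XTH4 (AT2G06850) had 495 (transgenic) and 574 CPM (WT) in replicate 2, against 422 (transgenic) and 354 CPM (WT) in replicate 1 (log2 fold change 0.46, SE 0.10, edgeR adjusted p = 0.0163). XTH33 (AT1G10550) had 2.21 (transgenic) and 2.48 CPM (WT) in replicate 2, against 1.14 (transgenic) and 0.319 CPM (WT) in replicate 1, the last resting on 5 counts (log2 fold change 1.71, SE 0.42, edgeR adjusted p = 0.0371). These 3 encode xyloglucan endotransglucosylases, as does TCH4, which fell. The expansin gene EXPA8 fell by 0.56.

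In the nutrient lists for nitrate and phosphate 7.69% and 6.67% of members were called, which is 1 gene each and, in lists this short, no result about the group beside 1.37% of all tested loci called higher. Of 13 nitrate response genes 1 rose, NIA2 (AT1G37130), the main nitrate reductase gene, which had 1073 (transgenic) and 801 CPM (WT) in replicate 2, against 622 (transgenic) and 620.2 CPM (WT) in replicate 1 (log2 fold change 0.58, SE 0.10, edgeR adjusted p = 0.00275). Of 15 phosphate starvation genes 1 rose, IPS1 (AT3G09922), a non-coding RNA that sequesters a microRNA of phosphate signalling. It had 16 (transgenic) and 24 counts (WT) in replicate 2, against 0 (transgenic) and 5 counts (WT) in replicate 1 (edgeR adjusted p = 0.0375), and the size of its fold change depends on the prior count.

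Transcripts of the plastid genome were higher in part. Of 108 tested members, 7 rose and 0 fell by edgeR (6.48% called), 29 and 2 did so at an unadjusted p under 0.05, and DESeq2 called 1 higher and 0 lower. That share is close to the 6.67% called in the highest class of mean CPM, and loci of like abundance were not compared. In the genotype contrast of the same fit, 22 plastid loci were called higher in transgenic pools and 0 lower. Their median log2 fold change was 0.15, with a median log2 ratio of 0.18 in the transgenic pair and 0.11 in the WT pair. ATCG00490 had 793 (transgenic) and 731 CPM (WT) in replicate 2, against 576 (transgenic) and 559 CPM (WT) in replicate 1, with both replicate 2 pools higher (log2 fold change 0.42, SE 0.08, edgeR adjusted p = 0.0077). The plastid genome's share of all counts was also higher in both replicate 2 pools, with 5.02% (transgenic) and 4.00% (WT), against 3.33% (transgenic) and 3.76% (WT) in replicate 1, and its part in these differences was not tested. Of 60 tested mitochondrial loci edgeR called 0, with 1 higher and 1 lower at an unadjusted p under 0.05, and DESeq2 called 0.

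Salicylic acid and pathogen defence genes moved in both directions. Of 20 tested members, 2 rose and 2 fell by edgeR (20% called), 4 and 6 did so at an unadjusted p under 0.05, and DESeq2 called 1 higher and 1 lower. ACD6 (AT4G14400), an ankyrin repeat gene that promotes salicylic acid signalling, had 21.1 (transgenic) and 64.4 CPM (WT) in replicate 2, against 5.18 (transgenic) and 12.1 CPM (WT) in replicate 1. Both replicate 2 pools lay above both replicate 1 pools, with the smallest adjusted p of all tested loci (log2 fold change 2.27, SE 0.12, edgeR adjusted p = 4.75e-08). LURP1 (AT2G14560), a gene of resistance to the oomycete Hyaloperonospora, had 0.245 (transgenic) and 4.14 CPM (WT) in replicate 2, against 0.19 (transgenic) and 1.08 CPM (WT) in replicate 1, so that its rise rested on the WT pair (log2 fold change 1.72, SE 0.42, edgeR adjusted p = 0.0369).

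WRKY70 (AT3G56400), a transcription factor gene induced by salicylic acid, had 10.9 (transgenic) and 22.4 CPM (WT) in replicate 2, against 21.3 (transgenic) and 67.6 CPM (WT) in replicate 1. Within each genotype it was lower in replicate 2, while the WT replicate 2 pool lay slightly above the transgenic replicate 1 pool (log2 fold change -1.34, SE 0.13, edgeR adjusted p = 2.26e-05). CBP60G (AT5G26920), a calmodulin-binding activator of salicylic acid synthesis, had 2.39 (transgenic) and 2.69 CPM (WT) in replicate 2, against 3.22 (transgenic) and 11.1 CPM (WT) in replicate 1 (log2 fold change -1.41, SE 0.29, edgeR adjusted p = 0.0124), with most of the difference in the WT replicate 1 pool. WAK1 (AT1G21250), a wall-associated kinase gene among the 12 largest rises, had 7.55 (transgenic) and 25.6 CPM (WT) in replicate 2, against 4.3 (transgenic) and 9.0 CPM (WT) in replicate 1 (log2 fold change 1.25, SE 0.16, edgeR adjusted p = 0.000331). PR2, a classical marker of this response, had 0.184 (transgenic) and 2.33 CPM (WT) in replicate 2, against 0.19 (transgenic) and 0.638 CPM (WT) in replicate 1 and did not pass, and the list median was -0.19 in the transgenic pair and 0.15 in the WT pair.

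Seed transcripts were among the largest rises, and most of those named here differed more in the transgenic pair. Of 17 seed storage and oil body markers 8 were tested, and 9 were not. Of 8 tested members, 2 rose and 0 fell by edgeR (25% called), 7 and 0 did so at an unadjusted p under 0.05, and DESeq2 called 0 higher and 0 lower. CRC (AT4G28520), the gene of the 12S storage globulin cruciferin C, had 891 (transgenic) and 264 counts (WT) in replicate 2, against 2 (transgenic) and 34 counts (WT) in replicate 1 (log2 fold change 4.74, SE 0.48, edgeR adjusted p = 2.45e-05). CRA1 (AT5G44120), another cruciferin gene, had 54.1 (transgenic) and 27.9 CPM (WT) in replicate 2, against 0.948 (transgenic) and 13.4 CPM (WT) in replicate 1 (log2 fold change 2.54, SE 0.48, edgeR adjusted p = 0.00712). Both replicate 2 pools were above both replicate 1 pools in these 2 genes, and the transgenic replicate 1 pool was the lowest of the 4. The summed level of the 8 genes was 131 (transgenic) and 50.1 CPM (WT) in replicate 2, against 5.25 (transgenic) and 23.2 CPM (WT) in replicate 1.

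The other 6 markers did not pass, and their medians within genotypes differed, so the median log2 ratio of the 8 genes was 2.40 in the transgenic pair and 0.46 in the WT pair. OLEO1 (AT4G25140), an oil body protein gene, had 5.95 (transgenic) and 1.5 CPM (WT) in replicate 2, against 0.506 (transgenic) and 1.60 CPM (WT) in replicate 1, with WT pools alike. Among the 12 largest rises outside the list, M17 (AT2G41260), a late embryogenesis abundant gene, had 5.52 (transgenic) and 3.93 CPM (WT) in replicate 2, against 0.19 (transgenic) and 2.23 CPM (WT) in replicate 1 (log2 fold change 1.99, SE 0.46, edgeR adjusted p = 0.0284). TIP3;1 (AT1G73190), a tonoplast aquaporin gene of seeds, had 3.62 (transgenic) and 2.95 CPM (WT) in replicate 2, against 1.39 (transgenic) and 1.28 CPM (WT) in replicate 1, and here both genotypes rose alike (log2 fold change 1.29, SE 0.29, edgeR adjusted p = 0.0219). EPR1 (AT2G27380), an extensin-type gene, had 5.22 (transgenic) and 3.36 CPM (WT) in replicate 2, against 0.0632 (transgenic) and 0.255 CPM (WT) in replicate 1, the replicate 1 values resting on 1 and 4 counts (log2 fold change 4.68, SE 0.47, edgeR adjusted p = 2.45e-05). AT2G42560, AT5G35660 and AT2G28490, which have no symbol, rose by 2.57, 2.48 and 2.09 with the same large share of the transgenic pair, with log2 ratios of 4.26, 5.44 and 3.74 there and 0.73, 0.78 and 0.44 in the WT pair. The last of the 12, AT4G21870, had 23.4 (transgenic) and 24.7 CPM (WT) in replicate 2, against 12.7 (transgenic) and 7.98 CPM (WT) in replicate 1 (log2 fold change 1.24, SE 0.15, edgeR adjusted p = 0.000163).

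**Figure D4:**
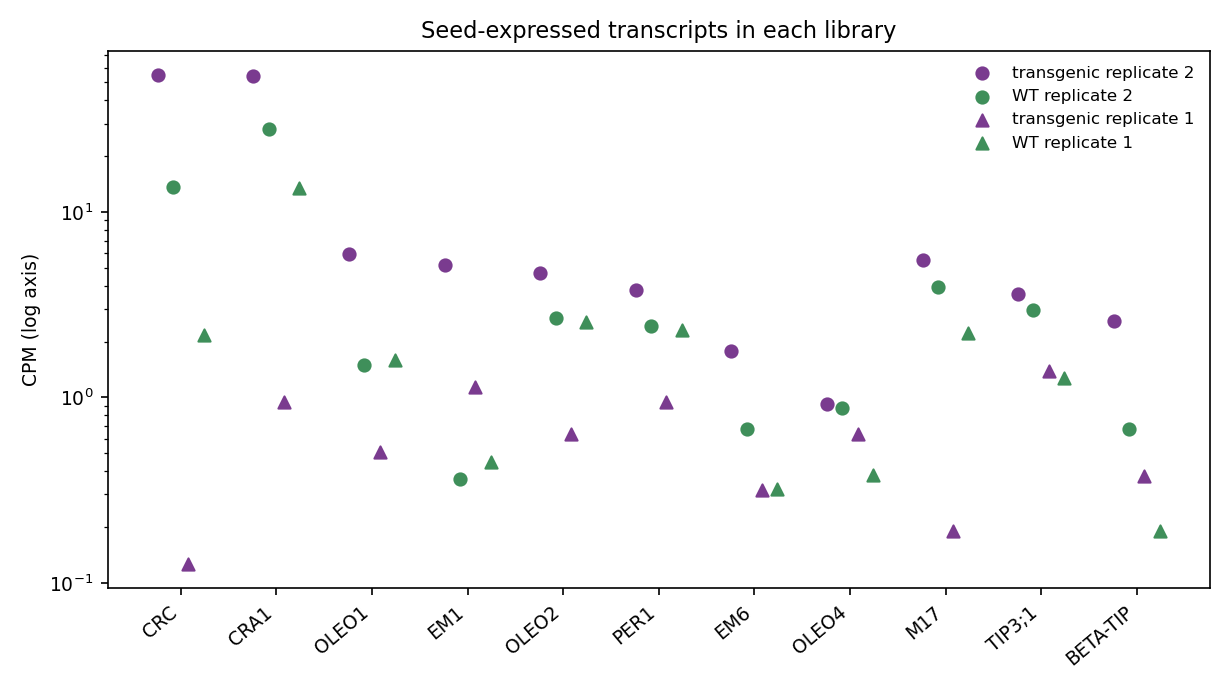
CPM on a log axis of the 8 tested seed storage and oil body genes and of M17, TIP3;1 and BETA-TIP in each library, with replicate 2 as circles, replicate 1 as triangles, transgenic pools in purple and WT pools in green. The transgenic replicate 2 pool was the highest in all 11 genes, and in CRC, CRA1, OLEO1, OLEO2, PER1, EM6 and M17 the transgenic replicate 1 pool was the lowest.

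Of 7 floral organ markers only SEP3 (AT1G24260), a MADS-box gene of flowers, was tested. It had 0.552 (transgenic) and 0.517 CPM (WT) in replicate 2, against 1.45 (transgenic) and 3.0 CPM (WT) in replicate 1 (log2 fold change -2.04, SE 0.41, edgeR adjusted p = 0.011), and its groups did not overlap. The other 6 were not tested.

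Several lists had 0 calls by edgeR, which in short lists shows nothing about their members, since 2.88% of all tested loci were called. Of 22 heat shock genes 0 were called, with 0 higher and 6 lower at an unadjusted p under 0.05, and DESeq2 called 0. HSP90.1, a heat-induced chaperone gene, had 41.5 (transgenic) and 37.0 CPM (WT) in replicate 2, against 61.6 (transgenic) and 39.4 CPM (WT) in replicate 1, so that the transgenic replicate 1 pool stood above the others. Of 15 flavonoid and anthocyanin genes 0 were called, with 4 lower at an unadjusted p under 0.05, and 0 called by DESeq2. Of these 15, 9 were lower in the transgenic pair and 14 in the WT pair, with median log2 ratios of -0.04 in the transgenic pair and -0.43 in the WT pair, and the fitted median of -0.28 became 0.12 without WT replicate 1. By edgeR 0 calls were made also among 12 copper genes, 21 genes of oxidative stress and detoxification, 9 low-oxygen genes, 7 chaperones of the endoplasmic reticulum and 12 genes of phase change and flowering time. At an unadjusted p under 0.05 these lists had 1, 5, 0, 2 and 5 members, and DESeq2 called 0 in each. The root, guard cell and shoot meristem markers also had 0 calls among 8, 8 and 5 tested genes, with 1, 0 and 0 at an unadjusted p under 0.05, and DESeq2 called 0.

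Genes commonly used as references in quantitative PCR differed little. Of 14 tested, edgeR called 0, with 1 at an unadjusted p under 0.05, and DESeq2 called 0, and their median log2 fold change was 0.01. ACT2, an actin gene, had 844 (transgenic) and 731 CPM (WT) in replicate 2, against 745 (transgenic) and 597 CPM (WT) in replicate 1, which was the largest difference of the list and did not pass (log2 fold change 0.24, SE 0.08). UBQ10, a polyubiquitin gene, had 1444 (transgenic) and 1494 CPM (WT) in replicate 2, against 1280 (transgenic) and 1471 CPM (WT) in replicate 1, and the replicates overlapped.

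**Figure D5:**
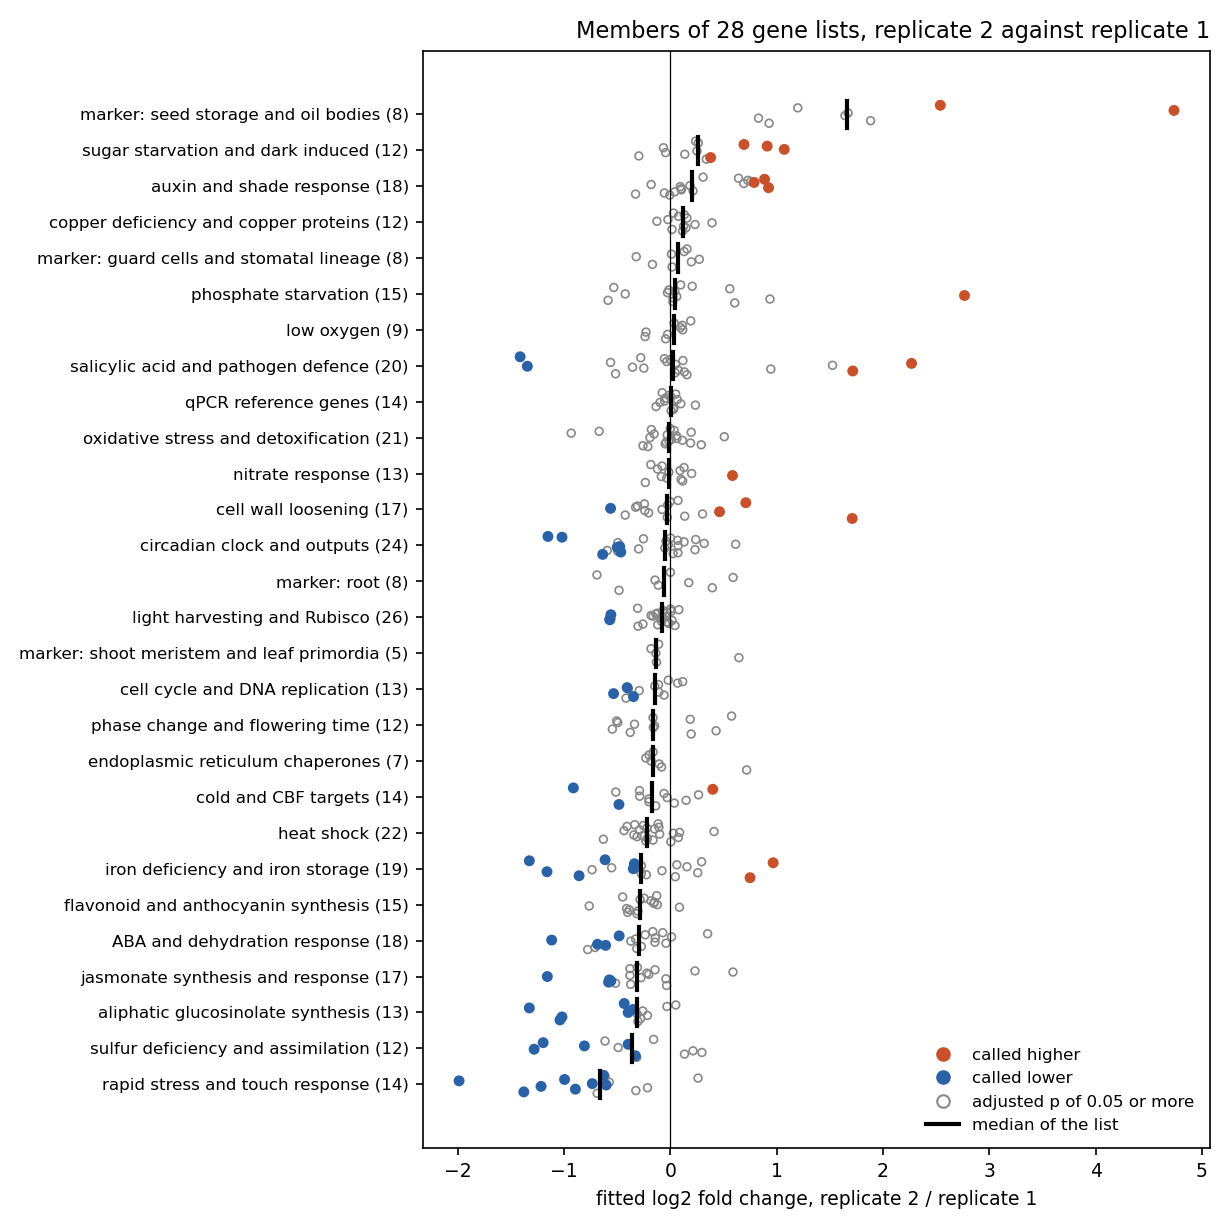
Fitted log2 fold change of replicate 2 over replicate 1 for the tested members of each gene list with at least 5 tested, with the number tested in brackets, filled points at an adjusted p under 0.05 and a black bar at the median. Among these lists the median was lowest for rapid stress and touch genes (-0.66) and highest for seed storage markers (1.66), and qPCR reference genes lay close to 0.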

How the data were processed

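Whole-seedling mRNA of 4 pools was analysed, and small RNA was not analysed here. Per the file headers, the authors deposited counts per gene locus, with a transcript length (other unit, bases) whose derivation is not stated. RPKM and CPM columns (8 in all) were not used. Per the submitters' processing notes, BWA 0.5.8c, Bowtie, edgeR and the build TAIR9 were used, with no role stated, and no source used here states the strand. Of the loci, 20420 (98.64%) were in a name table of a later build (TAIR10.1), which served for names and overlaps, and no coordinates, sequences or promoters were used, so the planned motif search was not run.

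Counts were scaled by TMM, filtered by filterByExpr and fitted with glmQLFit and glmQLFTest (edgeR 4.0.16, R 4.3.3), two-sided, with genotype as covariate and 1 residual degree of freedom. The common biological coefficient of variation was 0.0688. SE is the log2 fold change over the root of F, so it also rests on the spread shared over loci. Ratios within a genotype used log2 CPM with a prior count of 2. Pools of a genotype differed beyond read sampling (chi-square per degree of freedom 11.04 transgenic, 10.15 WT). Alternatives used DESeq2 1.42.0 and limma 3.58.1. Figures used Python and matplotlib 3.10.9. The fit was also run on simulated data without an interaction of replicate and genotype, which does not show how well the calls hold in these data.

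Named loci were the 12 largest rises and 12 largest falls among called loci with the same sign in both genotypes and at least 20 counts in each pool of the higher replicate, up to 3 members per list by smallest p, and the 5 loci with the largest opposite ratios. Other list members were named after their values were seen. The members and gene lists were chosen with earlier results of these data known. Lists were matched by locus and described by counts and medians, with no list test.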

Additional observations from a re-analysis of the deposited data

Results flagged for a closer look

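Some results had opposite directions in the genotypes, each from 1 pair of libraries, and the difference between genotypes was not tested. AT1G15405, a non-coding RNA locus, had 18.3 (transgenic) and 3.83 CPM (WT) in replicate 2, against 3.79 (transgenic) and 18.4 CPM (WT) in replicate 1, so the log2 ratio was 2.23 in the transgenic pair and -2.23 in the WT pair, a difference of 4.47. AT4G22470 had log2 ratios of 1.56 in the transgenic pair and -1.76 in the WT pair (difference 3.32), and AT2G31141 had 1.08 in the transgenic pair and -1.41 in the WT pair (difference 2.49). YUC3, a gene of auxin synthesis, had 1.02 in the transgenic pair and -1.26 in the WT pair (difference 2.27). AT5G03020 went the other way, with -1.28 in the transgenic pair and 1.32 in the WT pair (difference -2.60). These loci had the largest opposite ratios among the loci with enough counts and were chosen for it, so the values are a description. The gene models of AT1G15405, AT4G22470, AT5G03020 and AT2G31141 overlap other genes.

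The median log2 ratio of the 20 salicylic acid and pathogen defence genes was -0.19 in the transgenic pair and 0.15 in the WT pair, a difference of -0.34. That of the 19 iron genes was 0.17 in the transgenic pair and -0.45 in the WT pair, a difference of 0.62.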

How the results depend on the processing

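Of the alternatives in edgeR that kept the covariate and the threshold, the calls ranged between 478 (robust fit) and 795 (RLE factors), against 584, and limma-trend called 646. DESeq2 called 95, an adjusted p under 0.1 gave 891, and the fit with no genotype covariate gave 0. With 1 library left out, calls ranged between 0 and 276, and fewer libraries and the lost covariate both enter those fits. The genotype comparison with the replicate block gave 596 loci, against 17 with no replicate block (1608 at an unadjusted p under 0.05) and 107 with DESeq2 and the replicate block, and the cause was not tested. Whether the numbers pair the pools is not stated in the labels, and with 2 pairs the log2 ratios of the genotypes correlated with r = 0.23 across loci.

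Under limma-trend the log2 fold change of AT1G15405 was 0.00022 and that of AT5G03020 0.017, on the other side of 0. With 1 library left out the following log2 fold changes changed sign, over the ranges given, and of these loci TSO2 is the 1 that had been called. AHB1 ranged between -0.46 and 0.015, BIP1 between -0.46 and 0.015, BIP2 between -0.44 and 0.062, CCH between -0.26 and 0.0075, CNX1 between -0.33 and 0.014 and GAPC1 between -0.31 and 0.041. HRA1 ranged between -0.51 and 0.093, TSO2 between -0.78 and 0.0068, GSTF2 between -0.082 and 0.51, PDC1 between -0.14 and 0.37, UGT74E2 between -0.057 and 0.61, UBQ10 between -0.0058 and 0.20, KAT1 between -0.076 and 0.34 and EM1 between -1.12 and 2.68. AT1G15405 ranged between -1.53 and 1.51, AT4G22470 between -1.31 and 1.31, AT5G03020 between -0.83 and 1.06, AT2G31141 between -1.06 and 0.51 and YUC3 between -0.88 and 0.54. No other locus recomputed under these alternatives changed sign. A list median counted as moved where it shifted beyond the SD of the transgenic-pair and WT-pair medians, which is small where these are alike. Under other scalings, filters or no covariate, medians of gene lists moved in at most 4 of 29 lists. They moved in 14, 14, 14 and 19 of 29 lists without transgenic replicate 2, WT replicate 2, transgenic replicate 1 and WT replicate 1, where the covariate was lost as well. They also moved in 11 lists in the transgenic pair alone and in 13 in the WT pair alone. In 15 of 29 lists the median took the other sign with at least 1 library left out. It ranged between -0.59 and 0.096 for iron, -0.52 and 0.29 for heat shock, -0.64 and 0.12 for flavonoid, -1.06 and 0.12 for sulfur and -0.29 and 0.016 for cold genes. It kept its sign for rapid stress genes (-1.13 to -0.24), ABA (-0.38 to -0.11), jasmonate (-0.47 to -0.12), aliphatic glucosinolate (-0.54 to -0.11), sugar starvation (0.073 to 0.50) and seed storage genes (0.77 to 2.47).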

Other observations

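Gene families were looked up after the calls were seen, so their counts are a description, beside 2.88% of all tested loci called in either direction. Some members, such as MCM2 and TIP2;3, also belong to the lists above. Among ABA receptor genes, 4 of 9 tested were called higher and 0 lower, with a median log2 fold change of 0.35. ABI2 and PP2CA, which encode phosphatases that these receptors inhibit, fell by 0.48 and 0.39. Of other such phosphatase genes, ABI1, HAB1 and HAI1 had log2 fold changes of -0.37, -0.315 and -0.24 and did not pass. PYL4 (AT2G38310) had 116 (transgenic) and 134 CPM (WT) in replicate 2, against 83.7 (transgenic) and 66.7 CPM (WT) in replicate 1 (log2 fold change 0.73, SE 0.10, edgeR adjusted p = 0.000651). PYR1 (AT4G17870) had 77.1 (transgenic) and 80.3 CPM (WT) in replicate 2, against 60.7 (transgenic) and 62.5 CPM (WT) in replicate 1 (log2 fold change 0.35, SE 0.08, edgeR adjusted p = 0.0241). PYL5 and RCAR3 rose by 0.51 and 0.35, and in PYL4, PYR1 and PYL5 both replicate 2 pools were above both replicate 1 pools.

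Beta-xylosidase genes, which trim cell wall xylans and arabinans, were called higher in 3 of 4 tested. BXL1 (AT5G49360) had 597 (transgenic) and 528 CPM (WT) in replicate 2, against 459 (transgenic) and 210.5 CPM (WT) in replicate 1 (log2 fold change 0.85, SE 0.14, edgeR adjusted p = 0.00314), and BXL2 and XYL4 rose by 0.62 and 0.66. Of 9 tonoplast aquaporin genes 4 were called higher, of which TIP3;1 and BETA-TIP are seed genes already described with the seed transcripts or drawn beside them. The others include DELTA-TIP (AT3G16240), with 1169 (transgenic) and 906 CPM (WT) in replicate 2, against 779 (transgenic) and 503 CPM (WT) in replicate 1 (log2 fold change 0.72, SE 0.09, edgeR adjusted p = 0.000196). Of 8 sugar and polyol transporter genes 4 were called higher. FLA9 (AT1G03870), a fasciclin-like arabinogalactan protein gene, had 329 (transgenic) and 353 CPM (WT) in replicate 2, against 247 (transgenic) and 146 CPM (WT) in replicate 1 (log2 fold change 0.84, SE 0.13, edgeR adjusted p = 0.00196). All 6 genes of the MCM2 to MCM7 helicase had log2 fold changes below 0, and MCM2 and MCM3 fell by 0.53 and 0.45. Of 13 plasma membrane aquaporin genes 2 were called higher, with a median log2 fold change of 0.0078, and of 9 wall-associated kinase genes 2 were, with a median of 0.022. Calls were made for 3 of 27 arabinogalactan protein genes and 2 of 14 fasciclin-like ones, all higher. FLA8, which was not called, was counted in both sets. Of 12 loci matched by beta-amylase names, BAM5, BAM6 and CT-BMY were called lower, and the median log2 fold change was -0.08. The names BAM1 and BAM2 each matched 2 loci, so not all 12 need be beta-amylase genes. Of 6 annexin genes 2 were called lower.

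A few large differences rested on 1 pool. AT1G68250 had 326 (transgenic) and 7 counts (WT) in replicate 2, against 13 (transgenic) and 4 counts (WT) in replicate 1 (edgeR adjusted p = 2.45e-05). BAM5 (AT4G15210), a beta-amylase gene, had 3 (transgenic) and 20 counts (WT) in replicate 2, against 3 (transgenic) and 146 counts (WT) in replicate 1 (edgeR adjusted p = 0.000499).

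ICL (AT3G21720), the isocitrate lyase gene of seed oil breakdown, had 20.8 (transgenic) and 13.5 CPM (WT) in replicate 2, against 8.09 (transgenic) and 11.3 CPM (WT) in replicate 1 (log2 fold change 0.80, SE 0.19, edgeR adjusted p = 0.0277), with both replicate 2 pools higher. This locus was also chosen after its values were seen, as were AT1G68250 and BAM5.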
